A study of Xenopus laevis with 46 samples.

Results

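The Spemann organizer genes *gsc*, *not* and *nog* were followed through RNA sequencing of *Xenopus laevis* animal pole explants. *X. laevis* keeps homeologous chromosomes of an L and an S subgenome, and the count tables give each copy its own row. The 6 genes described here are the rows *gsc.L*, *gsc.S*, *not.L*, *not.S*, *nog.L* and *nog.S*, taken by name from 49281 gene rows. The names were chosen with earlier results of these data known. The organizer is the dorsal signalling centre of the amphibian gastrula, which patterns the mesoderm and induces neural tissue in the neighbouring ectoderm. Goosecoid (*gsc*) is a homeodomain protein of the organizer that represses transcription, and Not (*not*) is a homeodomain protein of the organizer and the notochord. Noggin (*nog*) is a secreted protein that binds bone morphogenetic proteins (BMPs) and keeps them from their receptors. The animal pole of the blastula holds pluripotent cells, which form epidermis when cultured alone and neural tissue when BMP signals are blocked.

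All explants were wild type. In the inhibitor experiments embryos were kept from the 2-cell stage in IBET or in TSA. IBET blocks the bromodomains with which BET proteins read acetylated histones, and TSA blocks histone deacetylases. Each inhibitor had its own DMSO vehicle group, and the study's methods say that TSA and IBET data were handled apart, each with its controls. A difference between the effects of IBET and TSA thus cannot be told apart from a difference between their experiments. RNA was taken in the blastula (stage 9) and in the early neurula (stage 13), from which each group has 2 libraries. In the injection experiment explants came from embryos injected with Wnt8 and Chordin mRNA (Wnt/Chrd), a pair that steers explants towards neural crest, or from uninjected embryos. These were harvested untreated at stage 9, or went into IBET or DMSO at stage 9 for a harvest at stage 13 or 17, and each group has 3 libraries. The 46 libraries thus fell into 18 groups. Within a group, libraries are named here by the letter of their count column. The labels do not say that the libraries of a group came from separate clutches, so that p-values measure only the spread between these libraries.

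The libraries held 12902520 to 32022992 reads counted in genes. Another 8.97 to 23.6% of the reads of a library mapped to several places and were counted for no gene, and reads shared by homeologous copies are lost or misplaced in this way, so that the split between an L and an S copy is uncertain. This share moved with treatment. At stage 13 it was 14.6 to 21.3% in the 8 IBET libraries against 11.4 to 14.2% in their 8 DMSO libraries, and 16.8 and 17.3% with TSA against 11.5 and 11.9% with DMSO. At stage 17 it was 14.3 to 23.6% with IBET against 13.2 to 13.8% with DMSO, highest in library b of uninjected explants with IBET, where 54.3% of reads fell in genes. Its part in the inhibitor effects and copy shares below was not tested. The injected mRNAs were present as labelled: *wnt8a.L* had 65072, 76294 and 99353 reads in Wnt/Chrd explants at stage 9, against 8, 5 and 4 reads in uninjected explants. The Chordin row *chrd.1.S* had 97220, 30932 and 185653 reads there, against 2, 0 and 2. In Wnt/Chrd explants at stage 17 it had 55619, 31204 and 92620 reads with IBET, against 10213, 6653 and 19008 with DMSO (log2 fold change 2.56, adjusted p = 0.00355, edgeR quasi-likelihood test). At stage 13 these were 85095, 40031 and 170396 against 23064, 28577 and 142876. The part of *chrd.1.S* in the IBET effects in Wnt/Chrd explants was not tested. The neural crest list (20 rows) summed to 1329 to 1624 CPM, the count of a gene scaled to the size of its library, in Wnt/Chrd explants with DMSO at stage 13, against 35.7 to 50.3 CPM in uninjected explants with DMSO. The epidermis list (18 rows) summed to 17720 to 31320 CPM in those uninjected explants. Library a of Wnt/Chrd with DMSO at stage 13 stood apart, with an epidermis sum of 22160 CPM against 5115 and 5826 CPM in libraries b and c. Both vehicle libraries of the IBET experiment at stage 13 carried mesoderm transcripts, with a sum over 24 rows of 396.6 and 639.8 CPM, against 33.4 and 57.5 CPM in the vehicle libraries of the TSA experiment. These 3 libraries enter every comparison with their groups.

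Levels below are CPM scaled over all 46 libraries by the trimmed mean of M values, with the mean and the SD over the libraries of a group. They are compared between groups for one gene and never between genes, since no gene length was used. The levels of *gsc.L* were highest at stage 13 in IBET, whatever the explants had been before. They averaged 4.11 ± 0.441 CPM with IBET from the 2-cell stage (n = 2), 3.56 ± 2.30 CPM in Wnt/Chrd explants with IBET (n = 3) and 3.26 ± 1.75 CPM in uninjected explants with IBET (n = 3), and the libraries of these 3 groups overlapped. The next group, IBET from the 2-cell stage at stage 9, averaged 1.55 ± 0.425 CPM (n = 2). All groups with DMSO and all untreated groups averaged 0.737 CPM or less, and *gsc.L* had no read in either vehicle group at stage 13 of the 2-cell-stage experiments. A count of 0 in these libraries allows a level of up to 0.103 CPM in the IBET vehicle group, taking 3 counts over the group as the floor. The S copy was arranged differently. Its highest means were 0.713 ± 0.184 CPM with TSA at stage 9, 0.655 ± 0.164 CPM in the TSA vehicle and 0.605 ± 0.0208 CPM in the IBET vehicle (n = 2 each), with overlapping libraries, and *gsc.S* had no read in the 6 uninjected libraries at stage 17.

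**Figure D1:**
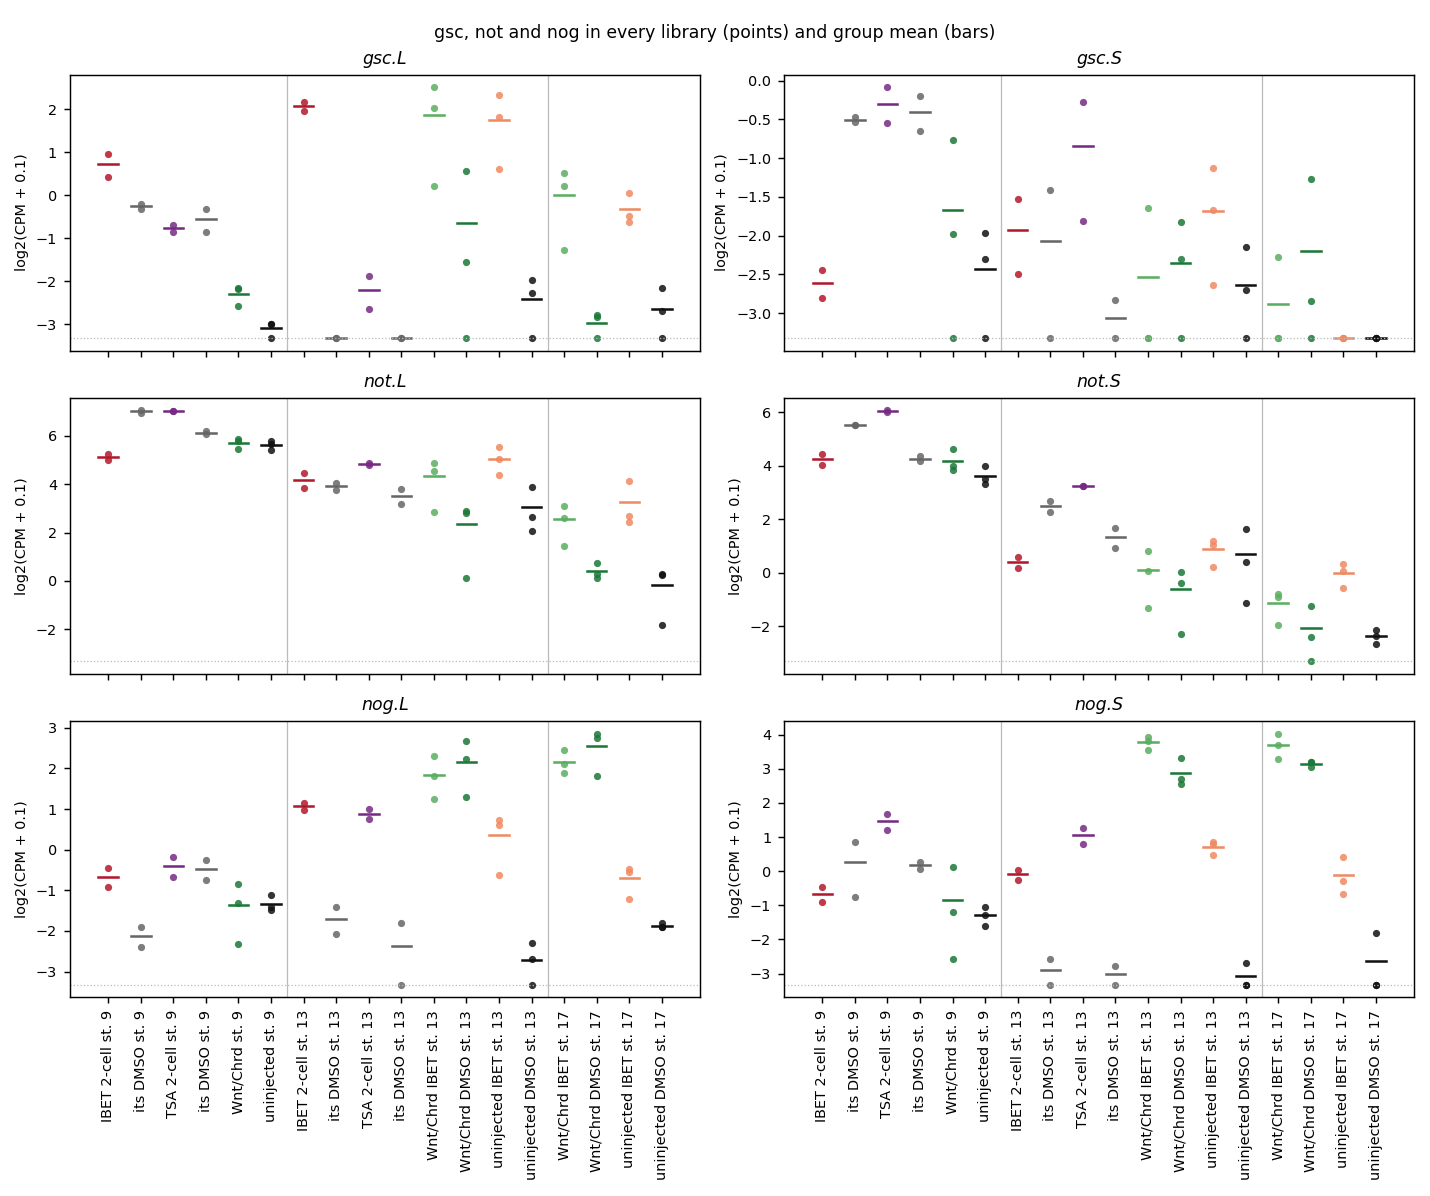
Level of each *gsc*, *not* and *nog* copy in every library, as log2(CPM + 0.1) on the vertical axis, for the 18 groups along the horizontal axis; points are libraries, bars are group means, and the dotted line marks a count of 0. The *gsc.L* means of the 3 IBET groups at stage 13 lie at the top of their panel (4.11, 3.56 and 3.26 CPM), those of *not* lie at the left, at stage 9, and those of *nog* at Wnt/Chrd explants of stages 13 and 17.

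Both copies of *not* were highest at stage 9. For *not.L* the means were 130 ± 1.28 CPM with TSA and 128 ± 6.13 CPM in the IBET vehicle, which overlapped, and then 70.1 ± 4.09 CPM in the TSA vehicle, which overlapped with neither (n = 2 each). The untreated explants followed at 52.5 ± 7.86 CPM with Wnt/Chrd and 49.8 ± 6.46 CPM without (n = 3 each), and IBET from the 2-cell stage gave the lowest stage 9 mean, 35.0 ± 4.40 CPM (n = 2). At the bottom of the order stood the DMSO groups of stage 17, at 1.23 ± 0.314 CPM in Wnt/Chrd explants and 0.794 ± 0.526 CPM in uninjected explants (n = 3 each). For *not.S* the first 3 groups did not overlap with each other: 66.0 ± 1.53 CPM with TSA at stage 9, 46.0 ± 0.199 CPM in the IBET vehicle and 19.1 ± 1.60 CPM in the TSA vehicle (n = 2 each). The vehicle groups of the 2 inhibitors thus differed from each other at the same stage, and each inhibitor is tested against its own vehicle below.

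The copies of *nog* were highest in Wnt/Chrd explants after stage 9. For *nog.S* these were 13.6 ± 1.89 CPM with IBET at stage 13, 13.0 ± 3.27 CPM with IBET at stage 17, 8.76 ± 0.450 CPM with DMSO at stage 17 and 7.30 ± 2.16 CPM with DMSO at stage 13 (n = 3 each). The libraries of the 2 IBET groups overlapped, as did those of the 2 DMSO groups, and IBET libraries did not overlap with DMSO libraries of stage 17. For *nog.L* the same 4 groups held the first 4 places, between 3.50 and 5.73 CPM, with overlapping neighbours, and no other group averaged above 1.992 CPM. The lowest group was uninjected explants with DMSO at stage 13 for both copies, at 0.0523 CPM for *nog.L* and 0.0181 CPM for *nog.S*.

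The first comparison asks what IBET, present from the 2-cell stage, changed in the blastula. At stage 9 both *not* copies fell. Of the 6 genes, all were tested, 2 were lower and 0 higher, where 2.37% of all genes tested were called and 2.18% were called lower. The reads of *not.L* numbered 887 and 760 with IBET, against 2926 and 3006 with DMSO, and those of *not.S* 495 and 386 against 1017 and 1111. No IBET library reached a vehicle library in either gene. The log2 fold change was -1.95 for *not.L* (SE 0.14, adjusted p = 0.0093, edgeR quasi-likelihood test with Benjamini-Hochberg adjustment) and -1.37 for *not.S* (SE 0.18, adjusted p = 0.0346). Sums of several tissue lists were lower in the same libraries. The neural plate list had 1014 and 1204 CPM with IBET against 1763 and 1853 CPM with DMSO (9 of 17 genes tested lower). The epidermis list had 375 and 390 CPM against 1197 and 1448 CPM (11 of 17 lower). The mesoderm list had 102 and 112 CPM against 165 and 178 CPM (3 of 10 lower, 1 higher). The neural crest list was higher, at 51.45 and 53.28 CPM against 24.78 and 41.72 CPM (1 of 11 higher, 0 lower). The part of these tissues in the fall of *not* was not tested. In bulk RNA, fewer cells that express a gene and less RNA per cell cannot be told apart. The *gsc* copies lay on opposite sides of no change and neither passed the test. There were 29 and 44 reads of *gsc.L* with IBET against 17 and 17 with DMSO (log2 fold change 0.99, adjusted p = 0.566), and 1 and 2 reads of *gsc.S* with IBET against 13 and 15 with DMSO (ratio 0.105, 95% counting interval 0.0205 to 0.341, adjusted p = 0.093). Neither pair of groups overlapped, and with the library letter as a block *gsc.S* passed (log2 fold change -3.22, adjusted p = 0.00456). For *nog*, *nog.L* had 10 and 15 reads with IBET against 2 and 4 with DMSO (adjusted p = 0.338), and the *nog.S* libraries overlapped.

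TSA moved *not* the other way at stage 9. Again all 6 genes were tested and 2 passed, here both higher, where 2.02% of all genes were called and 1.04% were called higher. The reads of *not.L* numbered 3818 and 3679 with TSA, against 1620 and 1989 with DMSO, and those of *not.S* 1890 and 1908 against 433 and 551. The TSA libraries lay above the vehicle libraries in both genes. The log2 fold change was 0.82 for *not.L* (SE 0.08, adjusted p = 0.0196) and 1.71 for *not.S* (SE 0.11, adjusted p = 0.0104). The notochord and floor plate list, which holds neither copy of *not*, summed to 33.8 and 34.5 CPM with TSA against 2.57 and 3.11 CPM with DMSO, and the part of such cells in this rise was not tested. Reads of *nog.S* numbered 65 and 89 with TSA against 23 and 30 with DMSO, and this did not pass (log2 fold change 1.301, SE 0.33, adjusted p = 0.188). With the library letter as a block *nog.S* passed at nearly the same value (adjusted p = 0.000599). For *gsc.L*, *gsc.S* and *nog.L* the libraries of both groups overlapped, and their log2 fold changes lay between -0.33 and 0.04. The difference between the effects, IBET minus TSA in a single fit of the 4 groups, passed for 2 of the 6 genes, against 0.963% of all genes called and 0.919% called lower. It was -2.75 for *not.L* (SE 0.16, adjusted p = 0.00116) and -3.06 for *not.S* (SE 0.22, adjusted p = 0.00224). With the block *gsc.S* (-3.26, adjusted p = 0.0265) and *nog.S* (-2.33, adjusted p = 0.0276) passed too.

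By stage 13, 4 of the 5 genes tested had passed with IBET from the 2-cell stage, 3 higher and 1 lower, at a background of 56.7% of all genes called. Both inhibitors changed most of the measured transcriptome at this stage, so that a high share of calls is no property of these genes. Moreover, *gsc.L* and both *nog* copies passed the filter only through their IBET libraries and could only be called higher. For *gsc.L* there were 57 and 77 reads with IBET and 0 and 0 reads with DMSO, so that the level was at least 39.4-fold higher with IBET against a floor of 3 counts over the vehicle group, taking counts summed over each group (adjusted p = 0.000521). The S copy had 1 and 5 reads with IBET and 4 and 0 with DMSO and was too low to be tested. Of the *not* copies, 1 passed. Reads of *not.L* numbered 279 and 286 with IBET against 237 and 199 with DMSO, and the groups overlapped in CPM (log2 fold change 0.26, SE 0.26, adjusted p = 0.407). Reads of *not.S* numbered 18 and 21 with IBET against 91 and 69 with DMSO, with no overlap, and *not.S* fell (log2 fold change -2.18, SE 0.36, adjusted p = 0.0027). With both copies summed, *not* did not pass (log2 fold change -0.0933, adjusted p = 0.769, edgeR quasi-likelihood test). Both *nog* copies rose. *nog.L* had 24 and 43 reads with IBET against 4 and 2 with DMSO (log2 fold change 3.24, SE 0.54, adjusted p = 0.00273). *nog.S* had 12 and 15 reads against 1 and 0, a ratio of 23.8 (95% counting interval 3.92 to 974, adjusted p = 0.00642), and without vehicle library b, which has no read, it no longer passed (adjusted p = 0.0624).

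The vehicle libraries of this last comparison are the ones that carry mesoderm transcripts. *tbxt.L*, which encodes the T-box factor Brachyury of early mesoderm and notochord, averaged 0.0635 CPM with IBET against 27.4 CPM with DMSO, and *tbxt.S* 3.104 CPM against 53.0 CPM. The notochord and floor plate list (11 rows) summed to 5.38 and 13.6 CPM with IBET, against 78.9 and 87.8 CPM with DMSO. *not* is itself a notochord gene, and the part that these transcripts have in the fall of *not.S* was not tested. Since both vehicle libraries carry them, the comparison has no value without them. The level of *not.S* was 1.22 ± 0.255 CPM with IBET, against 5.48 ± 1.11 CPM in its vehicle and 2.41 ± 0.890 CPM in the TSA vehicle of the same stage (n = 2 each), where *tbxt.S* averaged 1.22 CPM. In uninjected explants with DMSO at stage 13, *not.S* had 1.52 ± 1.34 CPM (n = 3), and the range of 0.359 to 2.99 CPM held the IBET level. The mesoderm list summed to 11.5 to 15.9 CPM in that group. These vehicle groups belong to other experiments.

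With TSA from the 2-cell stage all 4 genes tested at stage 13 were higher, at a background of 72.7% called and 36.9% called higher. Both *nog* copies passed the filter only through their TSA libraries and could only be called higher. The count thus cannot be read against the background. Reads of *not.L* numbered 837 and 447 with TSA against 343 and 195 with DMSO (log2 fold change 1.31, SE 0.20, adjusted p = 0.000607), and those of *not.S* 271 and 151 against 44 and 66 (log2 fold change 1.97, SE 0.29, adjusted p = 0.000461). No library overlapped in CPM. *nog.L* had 55 and 26 reads with TSA against 0 and 4 with DMSO (log2 fold change 4.27, SE 0.77, adjusted p = 0.00143), and this value rests on the vehicle libraries, since it was 8.37 without library b and 3.22 without library a. *nog.S* had 67 and 27 reads against 0 and 1, a ratio of 96.6 (95% counting interval 16.9 to 3856, adjusted p = 0.000155). The *gsc* copies were too low to be tested. There were 5 and 1 reads of *gsc.L* with TSA and 0 and 0 with DMSO. *gsc.S* had 21 and 3 reads against 1 and 0, a ratio of 24.7 (95% counting interval 4.02 to 1014). Among *gsc* reads at stage 13 the S copy was 80.0% of 30 reads with TSA (95% exact binomial interval 61.4 to 92.3%) and 4.29% of 140 reads with IBET (95% exact binomial interval 1.59 to 9.10%), while the vehicle groups held only 1 and 4 *gsc* reads, all of the S copy. Mesoderm markers moved with TSA as well. The mesoderm list summed to 144.8 and 184.8 CPM with TSA at stage 13, against 33.4 and 57.5 CPM with DMSO, and the notochord and floor plate list to 16.7 and 17.4 CPM against 2.63 and 2.95 CPM. Their part in the rise of *not* was not tested.

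The difference between the inhibitors, IBET minus TSA, could be tested at stage 13 for 5 genes, and 2 passed, both lower, where 26.4% of all genes did and 12.6% were lower. Both IBET vehicle libraries carry mesoderm transcripts, which leaving out 1 library does not remove. The difference was -4.18 for *not.S* (SE 0.46, adjusted p = 0.000218), and -4.62 to -3.82 with each of the 8 libraries left out. For *not.L* it was -1.09 (SE 0.35, adjusted p = 0.0419), and that call ended without 5 of the 8 libraries, at adjusted p values of 0.0859 to 0.142: vehicle library a and IBET library b of the one experiment, and vehicle library b and TSA libraries a and b of the other. For *gsc.L* both vehicles are at 0 and no estimate of the difference could be had. The inhibitor effects were also compared between stages, as the effect at stage 13 minus that at stage 9. For IBET 3 of 6 genes passed, all higher (background 30.2%, or 14.8% higher), namely *not.L* at 2.17 (SE 0.30, adjusted p = 0.00148), *gsc.L* at 8.31 (adjusted p = 0.00174) and *nog.S* at 5.46 (adjusted p = 0.0169). For TSA 4 of 6 passed, all higher (background 47.7%, or 20.4% higher), namely *gsc.L* at 4.99, *gsc.S* at 4.10, *nog.L* at 4.15 and *nog.S* at 4.86. Other than that of *not.L*, these values rest on vehicle groups with 0 to 4 reads at stage 13, so that their size depends on the prior count of the fit and is no bound. The *not.L* value rests on the IBET vehicle libraries that carry mesoderm transcripts at stage 13. *nog.S* with IBET lost its call without stage 9 vehicle library a or stage 13 vehicle library b (adjusted p = 0.0542 and 0.0693). With TSA, *gsc.L* lost it without any of 7 of the 8 libraries and *gsc.S* without any of 4.

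**Figure D2:**
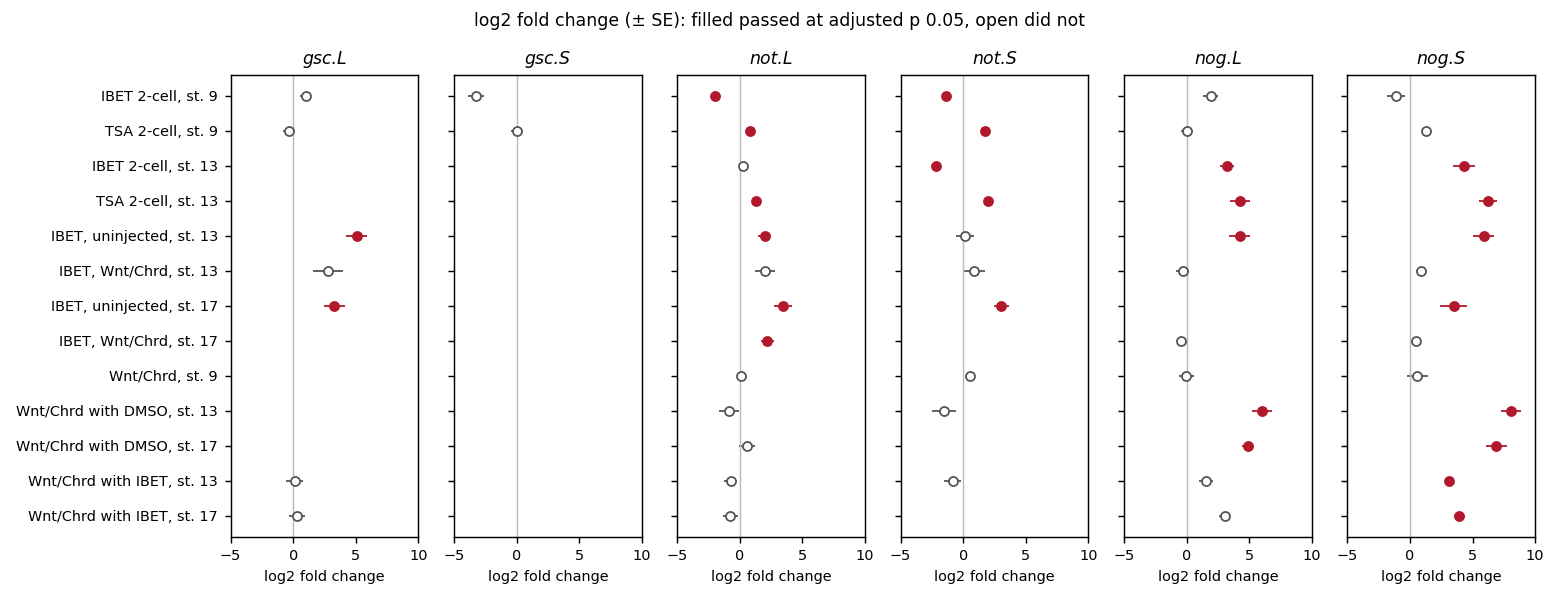
Log2 fold change (horizontal axes) of each gene in the 13 pairwise comparisons, inhibitor over DMSO or Wnt/Chrd over uninjected, with the standard error as bars; filled points passed at an adjusted p of 0.05, open points did not, and genes that were not tested or had no read in a group have no point. In the *not.S* panel the points of IBET from the 2-cell stage lie left of 0 at stages 9 and 13 (-1.37 and -2.18). The TSA points lie right of 0 (1.71 and 1.97), as does the open point of IBET from stage 9 in uninjected explants at stage 13 (0.17).

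The share of *not.S* among all *not* reads sets the copies against each other. Copy lengths were not taken into account, so the share is read only between groups. At stage 9 it was 34.8 ± 1.51% with IBET against 26.4 ± 0.849% with DMSO, and 33.6 ± 0.735% with TSA against 21.4 ± 0.424% with DMSO (n = 2 each), with no overlap in either pair. At stage 13 it was 6.45 ± 0.551% with IBET against 26.7 ± 1.41% in the vehicle libraries that carry mesoderm transcripts, again without overlap, while TSA libraries (24.9 ± 0.559%) lay within the range of their vehicle libraries (18.3 ± 9.84%). With IBET from stage 9, the share at stage 13 was 5.01 ± 0.634% against 13.8 ± 4.93% with DMSO in uninjected explants and 4.42 ± 0.804% against 9.83 ± 1.16% in Wnt/Chrd explants (n = 3 each). Neither pair overlapped, and the two-sided exact permutation test gave p = 0.1 for each, the smallest that 3 against 3 libraries allow. With 2 against 2 libraries the smallest p is 0.333, and every pair of that size without overlap gave it. Shares of the other genes lay apart in some pairs and overlapped in others. At stage 9 the *gsc.S* share of *gsc* reads was 3.84 ± 0.718% with IBET against 45.1 ± 2.51% with DMSO (n = 2 each). With TSA at that stage the *gsc.S* share overlapped with that of DMSO. The *nog.S* share of *nog* reads at stage 9 was lower with IBET than with DMSO (difference -35 points). It was higher with TSA than with DMSO (difference 16.9 points), and neither pair overlapped (n = 2 each). In Wnt/Chrd explants the *nog.S* share of *nog* reads was 79.7 ± 5.49% with IBET against 63.2 ± 8.82% with DMSO at stage 13 and 74.5 ± 1.26% against 61.4 ± 8.17% at stage 17 (n = 3 each), without overlap at either stage (two-sided exact permutation p = 0.1 each). Without library a of the stage 13 DMSO group, which has the high epidermis sum, the DMSO share was 58.4%. For *not* at stage 17, on 56 to 589 reads per group, the libraries of IBET and DMSO overlapped. The libraries of IBET at stage 13 thus held 3.92 to 6.84% of *not* reads in the S copy in all 3 kinds of explants, below the 8.14 to 27.7% of their DMSO libraries.

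**Figure D3:**
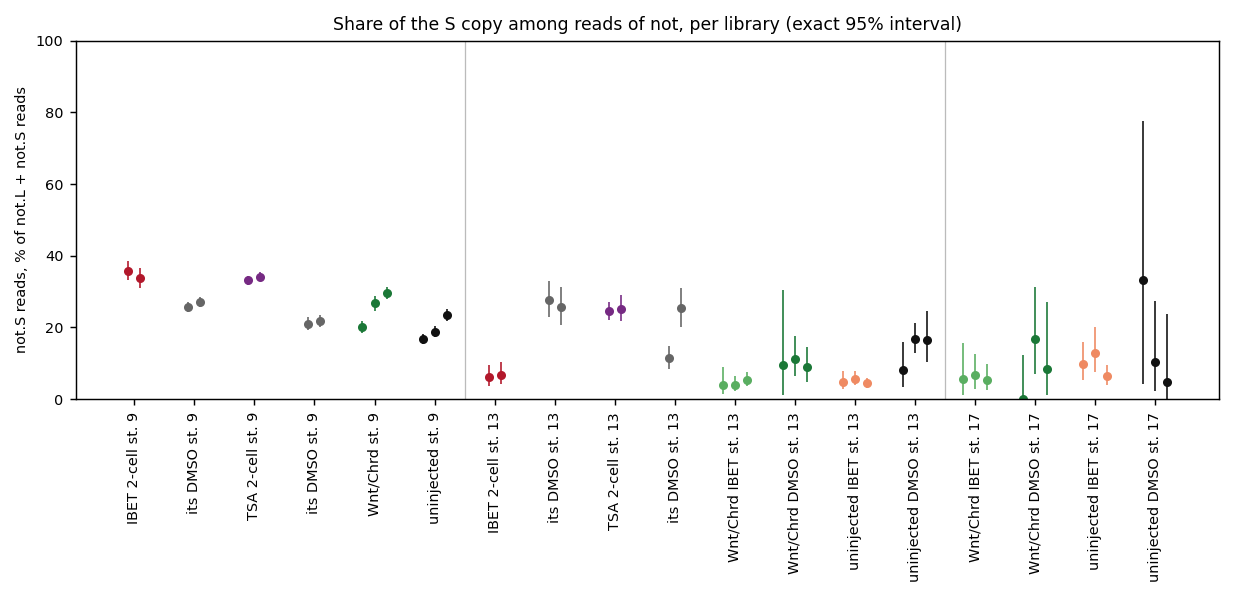
Share of *not.S* reads among the reads of both *not* copies (vertical axis, %), 1 point per library with its exact 95% binomial interval, which covers counting error only. The 8 IBET libraries at stage 13 lie between 3.92 and 6.84%, below all 8 DMSO libraries of their experiments, and intervals are widest at stage 17, where few reads were counted.

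The injection experiment first asks what Wnt/Chrd did to these genes. In untreated explants at stage 9 none of the 4 genes tested passed in the edgeR quasi-likelihood test, where 0.0244% of all genes did; 0 of them had an unadjusted p under 0.05 and DESeq2 called 0. Reads of *not.L* numbered 1821, 1288 and 1899 in Wnt/Chrd explants against 2175, 1881 and 1971 in uninjected explants, and overlapped in CPM. Those of *not.S* numbered 459, 469 and 796 against 436, 437 and 607, also overlapping (log2 fold change 0.57, SE 0.26, adjusted p = 1). With the library letter as a block *not.S* passed at nearly the same value (0.56, adjusted p = 0.00224). The block called 465 of 20482 genes there, against 5 without it. *gsc.L* had 4, 2 and 4 reads in Wnt/Chrd explants and 1, 0 and 1 in uninjected explants, which did not overlap but were too few to be tested.

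At stage 13 with DMSO, Wnt/Chrd explants held far more *nog* than uninjected ones, and of 4 genes tested the 2 *nog* copies passed, both higher (background 12%, or 4.4% higher). Both copies entered the test only through their Wnt/Chrd libraries and could only be called higher, so the count cannot be read against the background. *nog.L* had 46, 103 and 89 reads in Wnt/Chrd explants against 2, 1 and 0 in uninjected explants, a ratio of 77.0 (95% counting interval 26.0 to 376, adjusted p = 0.00724). *nog.S* had 124, 161 and 112 reads against 0, 1 and 0, a ratio of 385 (95% counting interval 68.7 to 15250, adjusted p = 0.00388). The groups lay far apart in both copies. Without library a of Wnt/Chrd, the one with the high epidermis sum, both copies still passed (adjusted p = 0.00337 for *nog.L* and 0.00219 for *nog.S*). The transcription factors did not pass: *not.L* had 19, 120 and 134 reads against 79, 272 and 96 (log2 fold change -0.85, adjusted p = 0.581), *not.S* had 2, 15 and 13 against 7, 55 and 19 (-1.57, adjusted p = 0.371), and *gsc.L* had 0, 4 and 27 against 3, 2 and 0 and was not tested. The neural crest sums given above moved with *nog* here, and their part in its rise was not tested.

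At stage 17 with DMSO the *nog* difference persisted, with 2 of 3 genes tested higher at a background of 41.2% called and 18.9% called higher. Both *nog* copies again entered the test only through their Wnt/Chrd libraries and could only be called higher. *nog.L* had 86, 158 and 147 reads in Wnt/Chrd explants against 4, 4 and 3 in uninjected explants (log2 fold change 4.92, SE 0.48, adjusted p = 0.000216). *nog.S* had 208, 199 and 200 reads against 4, 0 and 0 (log2 fold change 6.91, SE 0.81, adjusted p = 0.000524), and without uninjected library a, the only one with reads, the value was 10.58. Neither gene overlapped between groups. *not.L* had 28, 35 and 22 reads against 4, 26 and 20 and did not pass (log2 fold change 0.54, adjusted p = 0.529). When both kinds of explants were in IBET, uninjected explants held *nog* reads too. At stage 13, 1 of 5 genes passed (background 0.062%, all of it higher): *nog.S* had 256, 221 and 209 reads in Wnt/Chrd explants against 24, 21 and 32 in uninjected explants (log2 fold change 3.13, SE 0.36, adjusted p = 0.0388). The call ended whichever of the 6 libraries was left out, at adjusted p values of 0.0787 to 0.29 and log2 fold changes of 3.02 to 3.23. With the letter as a block and all libraries kept, *nog.S* passed there too (3.12, adjusted p = 0.00138). The block called 154 of all genes there, against 13 without it. At stage 17, 1 of 4 genes passed (background 0.225%, or 0.211% higher), again *nog.S*, with 312, 240 and 184 reads against 12, 21 and 13 (log2 fold change 3.93, SE 0.44, adjusted p = 0.0185), and without uninjected library c or any 1 of the Wnt/Chrd libraries it did not (adjusted p = 0.0717 to 0.177). *nog.L* had 103, 79 and 68 reads against 14, 10 and 6 and lay just outside (log2 fold change 3.05, SE 0.43, adjusted p = 0.0539), and passed with the letter as a block (3.07, adjusted p = 0.0169).

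With IBET from stage 9, at least 1 copy of each of *gsc*, *not* and *nog* rose in uninjected explants. At stage 13, 4 of 5 genes tested were higher and 0 lower, against 48.1% of all genes called and 22.9% called higher. Of these, *gsc.L* and both *nog* copies passed the filter only through their IBET libraries and could only be called higher. The count thus cannot be read against the background. The mesoderm list summed to 34.2 to 57.0 CPM with IBET against 11.5 to 15.9 CPM with DMSO at stage 13 (6 of 7 genes tested higher) and to 27.6 to 37.0 CPM against 2.05 to 7.49 CPM at stage 17 (5 of 6 higher), and its part in these rises was not tested. *gsc.L* had 20, 56 and 96 reads with IBET against 3, 2 and 0 with DMSO (log2 fold change 5.06, SE 0.84, adjusted p = 0.00184). *not.L* had 290, 531 and 907 reads against 79, 272 and 96 (log2 fold change 1.98, SE 0.54, adjusted p = 0.016). Neither gene overlapped in CPM, where the lowest IBET library of *not.L* had 20.6 CPM and the highest DMSO library 14.8 CPM. The *not.L* call ended without IBET library c (adjusted p = 0.0529) or DMSO library c (adjusted p = 0.0623). *not.S* did not follow it, with 15, 32 and 42 reads against 7, 55 and 19, overlapping (log2 fold change 0.17, SE 0.73, adjusted p = 0.864). *nog.L* had 22, 9 and 28 reads with IBET against 2, 1 and 0, a ratio of 21.2 (95% counting interval 6.90 to 106, adjusted p = 0.0039). *nog.S* had 24, 21 and 32 against 0, 1 and 0, a ratio of 82.9 (95% counting interval 14.4 to 3315, adjusted p = 0.000918). All IBET libraries lay above all DMSO libraries in both *nog* copies.

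At stage 17 all 4 genes tested in uninjected explants were higher with IBET (background 47.8%, or 22% higher). Of these, *gsc.L*, *not.S* and *nog.S* passed the filter only through their IBET libraries and could only be called higher. The count thus cannot be read against the background. *gsc.L* had 14, 16 and 10 reads with IBET against 0, 3 and 1 with DMSO (log2 fold change 3.27, SE 0.83, adjusted p = 0.0131). It no longer passed without DMSO library c (adjusted p = 0.0625), and was 4.34 without DMSO library b. *not.L* had 121, 107 and 311 reads against 4, 26 and 20 (log2 fold change 3.47, SE 0.73, adjusted p = 0.00578), or 2.77 without IBET library c. *not.S* had 13, 16 and 21 reads against 2, 3 and 1 (log2 fold change 3.06, SE 0.63, adjusted p = 0.0052). Here both *not* copies rose, and no library overlapped in either. *nog.S* had 12, 21 and 13 reads against 4, 0 and 0 (log2 fold change 3.48, SE 1.05, adjusted p = 0.0258). That call ended without any 1 of 4 libraries, DMSO b or c and IBET b or c (adjusted p = 0.0598 to 0.0923), and the value was 7.01 without DMSO library a. *nog.L*, with 14, 10 and 6 reads against 4, 4 and 3, was too low for the test, and its groups did not overlap in CPM.

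In Wnt/Chrd explants the same treatment gave fewer calls. At stage 13 none of 5 genes passed in the edgeR quasi-likelihood test (background 15.3%), 3 had an unadjusted p under 0.05 and DESeq2 called 2. *gsc.L* had 18, 63 and 102 reads with IBET against 0, 4 and 27 with DMSO (log2 fold change 2.76, SE 1.19, adjusted p = 0.134). *not.L* had 120, 368 and 531 reads against 19, 120 and 134 (log2 fold change 2.03, SE 0.79, adjusted p = 0.108). In both, library a was the lowest of its group in IBET and in DMSO, and the groups overlapped. With the letter as a block both passed, *gsc.L* at 3.37 (adjusted p = 0.0343) and *not.L* at 2.21 (adjusted p = 0.0168). Without DMSO library a, which has the high epidermis sum, the values were 2.196 for *gsc.L* (adjusted p = 0.168) and 1.57 for *not.L* (adjusted p = 0.143). *nog.L* had 81, 36 and 62 reads with IBET against 46, 103 and 89 (log2 fold change -0.31, adjusted p = 0.691), and *nog.S* 256, 221 and 209 against 124, 161 and 112 (log2 fold change 0.91, SE 0.40, adjusted p = 0.137), with no overlap in CPM. At stage 17, 1 of 3 genes passed (background 50.1%, or 24.4% higher): *not.L* had 50, 113 and 162 reads with IBET against 28, 35 and 22 with DMSO (log2 fold change 2.19, SE 0.51, adjusted p = 0.0085), without overlap. *gsc.L* had 6, 20 and 25 reads against 1, 0 and 1, a ratio of 31.2 (95% counting interval 8.21 to 265), and was too low for the test.

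Whether the IBET effect differed between Wnt/Chrd and uninjected explants was tested as an interaction. At stage 13 it passed for both *nog* copies and for 0 of the other 3 genes tested (background 2.24%, or 0.44% lower). The effect in Wnt/Chrd minus that in uninjected explants was -4.98 for *nog.S* (SE 0.83, adjusted p = 0.0124) and -4.56 for *nog.L* (SE 0.99, adjusted p = 0.0358). The *nog.S* call held with each of the 12 libraries left out, and the *nog.L* call ended without any of 9 of them (adjusted p = 0.0712 to 0.102). Without Wnt/Chrd DMSO library a, which has the high epidermis sum, both passed (adjusted p = 0.00736 for *nog.S* and 0.0153 for *nog.L*). Both rest on an uninjected DMSO group with 1 to 3 reads, and their size is no bound. For *gsc.L* the difference was -2.33 (SE 1.62, adjusted p = 0.765) and for *not.L* 0.03 (SE 1.01, adjusted p = 1), which turned to -0.0336 with library totals. At stage 17 none of 5 genes passed in the edgeR quasi-likelihood test (background 12.9%), 2 had an unadjusted p under 0.05 and DESeq2 called 1. The differences were -2.99 for *nog.S* (SE 0.93, adjusted p = 0.0557, or -3.02 and 0.0411 with the letter as a block) and -1.88 for *nog.L* (SE 0.58, adjusted p = 0.0547).

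**Figure D4:**
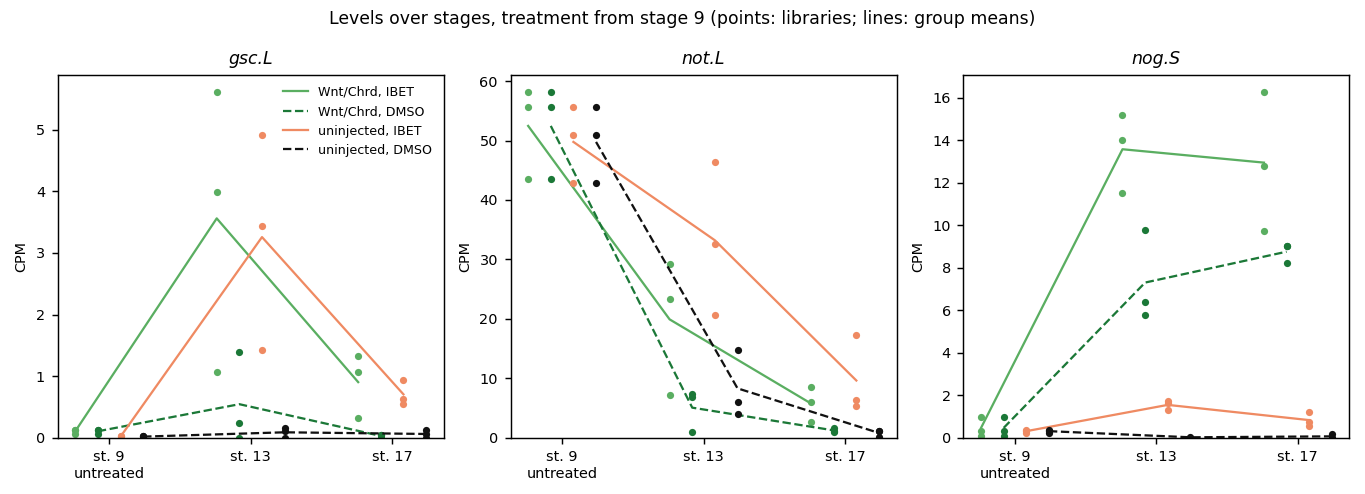
Levels of *gsc.L*, *not.L* and *nog.S* in CPM (vertical axes, from 0) at stages 9, 13 and 17 in the injection experiment. Points are libraries and lines join group means. The untreated stage 9 libraries start both the IBET and the DMSO line. *gsc.L* peaks at stage 13 with IBET (3.56 and 3.26 CPM), *not.L* means are lower at each later stage, and *nog.S* lies highest in Wnt/Chrd explants with IBET (13.6 and 13.0 CPM).

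Through the stages the 3 genes had different courses. In uninjected explants *not.L* averaged 49.8 ± 6.46 CPM at stage 9, 8.30 ± 5.69 CPM at stage 13 with DMSO and 0.794 ± 0.526 CPM at stage 17 with DMSO (n = 3 each), and both steps passed (log2 fold change -2.49, adjusted p = 0.00192, and -3.42, adjusted p = 0.0127). Stage 13 against stage 9 was called for 71.3% of all genes (35.4% lower) and 2 of 2 genes tested here (*not.L* and *not.S*, both lower), and stage 17 against stage 13 for 37.7% (18.1% lower) and 1 of 1. With IBET the course of *not.L* was 49.8, 33.2 ± 12.9 and 9.62 ± 6.60 CPM, and the step to stage 13 did not pass (log2 fold change -0.47, SE 0.30, adjusted p = 0.201), although library totals in place of the trimmed mean gave -1.20 (adjusted p = 0.0113). 4 of 5 genes passed in that step (background 64.5%), where *not.S* fell (-2.70, adjusted p = 0.000605) and *gsc.L*, *nog.L* and *nog.S* rose. *gsc.L* had 20, 56 and 96 reads at stage 13 with IBET against 1, 0 and 1 at stage 9, a ratio of 210 (95% counting interval 57.2 to 1747, adjusted p = 0.000244). *nog.L* rose by 2.09 on the log2 scale (adjusted p = 0.0132), a call that ended without stage 13 library c or stage 9 libraries b or c (adjusted p = 0.0546 to 0.0631) or with library totals (adjusted p = 0.0677), and *nog.S* rose by 2.43 (adjusted p = 0.00307).

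In Wnt/Chrd explants 4 of 4 genes tested passed between stages 9 and 13 with DMSO (background 62.5%), the *not* copies lower and the *nog* copies higher. *not.L* averaged 5.05 ± 3.53 CPM at stage 13 against 52.5 ± 7.86 CPM at stage 9 (log2 fold change -3.35, adjusted p = 0.0042), and *not.S* 0.561 ± 0.415 CPM against 18.1 ± 5.54 CPM (log2 fold change -4.98, adjusted p = 0.000884). *nog.L* averaged 4.40 ± 1.95 CPM at stage 13 against 0.289 ± 0.180 CPM (log2 fold change 3.94, adjusted p = 0.00228), and *nog.S* 7.30 ± 2.16 CPM against 0.462 ± 0.469 CPM (log2 fold change 4.01, adjusted p = 0.00523). All 4 calls held without stage 13 library a, the one with the high epidermis sum (adjusted p = 9.85e-05 to 0.00809). With IBET 4 of 5 passed (background 61%). *gsc.L* (5.17, adjusted p = 0.000956), *nog.L* (3.67, adjusted p = 0.00159) and *nog.S* (4.97, adjusted p = 0.000895) rose and *not.S* fell (-4.07, adjusted p = 0.000831). *not.L* did not pass there (-1.25, adjusted p = 0.0568), but passed with the letter as a block (-1.47, adjusted p = 0.0224), library totals (-2.07, adjusted p = 0.00818), DESeq2 (-1.12, adjusted p = 0.0491) and no filter (-1.38, adjusted p = 0.0156). From stage 13 to 17 with DMSO none of 3 genes passed in the edgeR quasi-likelihood test (background 13.7%), 1 had an unadjusted p under 0.05 and DESeq2 called 1. That gene was *not.L* (-1.99, adjusted p = 0.107), which passed without stage 13 library a (-2.48, adjusted p = 0.00532).

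In the vehicle explants of the 2-cell-stage experiments most of these genes were lower at stage 13 than at stage 9. All 6 genes fell in the TSA vehicle (background 78%, or 39% lower) and 4 of 5 tested in the IBET vehicle (background 73.6%, or 37.2% lower), whose stage 13 libraries carry mesoderm transcripts. All *gsc* and *nog* copies in the TSA vehicle, and *gsc.L* and *nog.S* in the IBET vehicle, passed the filter only through stage 9. They could thus only be called lower, and these counts cannot be read against the background. In the IBET vehicle *gsc.S* did not pass (adjusted p = 0.0794) and *nog.L*, with 6 reads at either stage, was not tested. *gsc.L* had 0 and 0 reads at stage 13 in both, against 11 and 19 at stage 9 in the TSA vehicle and 17 and 17 in the IBET vehicle. *not.L* fell to 11.4 CPM at stage 13 in the TSA vehicle, against 70.1 CPM at stage 9, and to 14.9 CPM in the IBET vehicle, against 128 CPM. *nog.S* had 0 and 1 reads at stage 13 in the TSA vehicle, against 23 and 30 at stage 9, and 1 and 0 in the IBET vehicle, against 38 and 12, where its call (adjusted p = 0.00858) ended without stage 13 library b (adjusted p = 0.0616). The *nog.L* call in the TSA vehicle ended without stage 9 library b (adjusted p = 0.096) or stage 13 library a (adjusted p = 0.158), and in DESeq2 (adjusted p = 0.122). With IBET 4 of 5 genes passed (background 70.5%): *gsc.L* rose by 1.44 on the log2 scale (SE 0.38, adjusted p = 0.0118) and *nog.L* by 1.94 (SE 0.46, adjusted p = 0.00747), while *not.L* fell by 0.94 (SE 0.24, adjusted p = 0.0102) and *not.S* by 3.93 (SE 0.31, adjusted p = 4.61e-05). *gsc.L* no longer passed without stage 13 library a (adjusted p = 0.0708) or with library totals (adjusted p = 0.0564), and *not.L* and *nog.L* without stage 13 library b (adjusted p = 0.0625 and 0.066). With TSA 4 of 6 passed (background 73.4%): *not.L* fell by 2.21, *not.S* by 2.82 and *gsc.L* by 1.87, and *nog.L* rose by 1.41. In DESeq2 neither *gsc.L* (adjusted p = 0.218) nor *nog.L* (adjusted p = 0.0641) passed there, and *gsc.L* was lost without any 1 library (adjusted p = 0.0691 to 0.213) and *nog.L* without either stage 13 library (adjusted p = 0.0676 and 0.125).

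Across the 18 group means the copies of *not* and of *nog* went together, and for those of *gsc* no such relation was seen. Pearson's r of log2(CPM + 1) was 0.90 for *not.L* with *not.S*, 0.91 for *nog.L* with *nog.S* and -0.01 for *gsc.L* with *gsc.S*, while *gsc.S* had an r of 0.76 with *not.S*. The group means of *gsc.S* were 0.713 CPM or less, on 0 to 41 reads per group. An r near 0 at such levels cannot show that the *gsc* copies diverge. All these values of r are descriptions over 18 groups that share stages, vehicles and depth. By the same measure, among 16409 named genes reaching 5 CPM in a group, the genes most like *gsc.L* were *nkx2-2.S* (r = 0.92), *nr2e1.S* (0.90) and *xirp1.S* (0.89). Those most like *gsc.S* were *eomes.S* (0.92), *foxd4l1.2.L* (0.90) and *adm2.S* (0.88). For *not.L* they were *herc6.S*, *extl2.L* and *mfsd10.L* (0.96 each), and for *not.S* *foxh1.2.L* and *btg5.2.S* (0.96 each) and *arhgdia.L* (0.94). For *nog.L* they were *zic4.L* (0.97), *pax3.S* (0.94) and *ror2.S* (0.94), and for *nog.S* *zeb2.L* (0.93), *zic4.L* (0.92) and *olig4.L* (0.91). Pax3 is a paired box factor of the neural plate border and neural crest, and Eomes a T-box factor of early mesoderm. The order is not firm: by Spearman's rho none of the 3 genes named for *gsc.L*, *gsc.S* or *not.L* was again among the first 3.

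Other organizer factors were counted as a list of 14 rows, matched from *lhx1*, *otx2*, *foxa4*, *foxa2*, *hhex*, *sia1*, *sia2* and *crx*. With TSA at stage 9, 6 of 10 tested were higher and 0 lower, at a median log2 fold change of 3.29 against 0.01 over all genes, of which 1.04% were called higher. *foxa4.L*, a forkhead factor of notochord and floor plate, averaged 13.1 CPM with TSA against 1.22 CPM with DMSO (adjusted p = 0.0104), and *hhex.S*, a homeobox factor of anterior endoderm, 18.2 CPM against 1.75 CPM (adjusted p = 0.00921). With IBET at stage 9, 1 of 6 was lower and 0 higher, at a median of -1.53, where 2.18% of all genes were lower. At stage 13 the list had 5 higher and 1 lower of 8 with IBET from the 2-cell stage (median 2.45) and 6 higher and 3 lower of 9 with TSA (median 4.57), beside all-gene medians of 0.03 and 0.12. Of all genes 56.7% were called with IBET there, 27.4% higher, and 72.7% with TSA, 36.9% higher. With IBET from stage 9, 3 of 5 were higher and 1 lower in uninjected explants at stage 13, and 5 of 6 higher and 1 lower at stage 17, where 22.9% and 22% of all genes were called higher. Among those that rose with IBET were *otx2* and *crx*, homeobox genes that also act in anterior neural ectoderm and eye. *otx2.L* averaged 28.1 CPM with IBET from the 2-cell stage at stage 13 against 2.12 CPM with DMSO (adjusted p = 0.000314), and *crx.S* 164 CPM with IBET at stage 17 in uninjected explants against 0.290 CPM (adjusted p = 3.94e-05). In Wnt/Chrd explants with IBET at stage 13, 0 of 6 were higher and 2 lower, *otx2.L* with 5.195 CPM against 63.0 CPM with DMSO (adjusted p = 0.0303) and *otx2.S* with 10.3 CPM against 80.2 CPM (adjusted p = 0.03), at a background of 8.6% lower. Both passed without DMSO library a, which has the high epidermis sum (adjusted p = 0.0262 and 0.0164). The sum of the list overlapped there, at 28.49 to 654.4 CPM with IBET against 82.9 to 1192 CPM with DMSO. In Wnt/Chrd explants at stage 17 the list summed to more with IBET, without overlap. It was 183.4 to 386.2 CPM with IBET against 37.0 to 96.88 CPM with DMSO.

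Noggin's fellow antagonists went in both directions. Of the secreted BMP antagonists, a list of 14 rows without *nog* and *chrd*, 7 were tested at stage 9, and their median log2 fold change was 0.04 with IBET and -0.01 with TSA. At stage 13, 1 was higher and 2 lower with either inhibitor from the 2-cell stage, of 5 tested with IBET and 6 with TSA. Of all genes, 27.4% were called higher and 29.3% lower with IBET there, and 36.9% and 35.8% with TSA. Calls in both directions are thus no property of this list. The list summed to less at that stage, at 39.0 and 42.5 CPM with IBET against 208.8 and 234 CPM with DMSO, 43.7 and 51.0 CPM with TSA against 276.5 and 280.3 CPM, and 13.6 to 35.2 CPM with IBET from stage 9 in uninjected explants against 176 to 266 CPM. *twsg1.L*, which encodes the BMP modulator Twisted gastrulation, averaged 17.95 CPM with IBET against 90.9 CPM with DMSO (adjusted p = 0.000267), and *nbl1.L*, which encodes the antagonist Dan, 6.35 CPM against 1.78 CPM (adjusted p = 0.00363). In Wnt/Chrd explants *cer1.S*, the secreted antagonist Cerberus, was lower with IBET at stage 17, at 0.0878 CPM against 10.4 CPM with DMSO (adjusted p = 0.000456), where *nog.S* had 13.0 CPM against 8.76 CPM (adjusted p = 0.132). The secreted Wnt antagonists had 4 higher and 0 lower of 5 tested with IBET and 8 higher of 8 with TSA at stage 13, beside 27.4% and 36.9% of all genes. *sfrp2.L*, which binds Wnt ligands, averaged 222 CPM with IBET against 3.98 CPM with DMSO (adjusted p = 3.21e-05). At stage 9 the Wnt antagonist list summed to less with both inhibitors. It had 55.17 and 64.98 CPM with IBET against 143.9 and 177.8 CPM with DMSO, and 65.05 and 80.77 CPM with TSA against 141.1 and 155.1 CPM.

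The tissue markers moved with these genes and their part in them was not tested. The neural plate list (19 rows) summed to 2765 and 2889 CPM with IBET from the 2-cell stage at stage 13 against 502.2 and 614.3 CPM with DMSO, and to 1071 and 1137 CPM with TSA against 375.9 and 390.8 CPM. With IBET from stage 9 it was 3116 to 3590 CPM at stage 13 against 352.6 to 540.8 CPM with DMSO in uninjected explants. The epidermis list summed to less in each of these comparisons, at 5043 and 5753 CPM with IBET from the 2-cell stage against 17210 and 21430 CPM with DMSO, 1374 and 1613 CPM with TSA against 19790 and 20830 CPM, and 1050 to 4397 CPM with IBET against 17720 to 31320 CPM with DMSO in uninjected explants at stage 13. The endogenous *chrd* and *wnt8a* rows can be read only without injection, and there *chrd.1.S*, the S copy of the organizer antagonist Chordin, had 495 and 708 reads with TSA against 8 and 19 with DMSO at stage 9 (log2 fold change 5.24, SE 0.40, adjusted p = 0.0121), and 576 and 234 against 0 and 1 at stage 13.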

How the data were processed

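Per the labels and the study's methods, RNA of animal pole explants was sequenced from a directional library kit, reads were trimmed with fastp 0.23.2, aligned to the *X. laevis* genome build 9.2 with STAR 2.6.0 and counted per gene with HTSeq 1.99.2. The authors deposited raw read counts per gene, the unit used here. The strand setting of the counting is not given in the sources used here, and reads that mapped to several places were counted for no gene. The tables hold 30 further per-sample columns that were not used, and 7 tables of the authors' fold changes and p-values were not used.

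Groups came from the labels. Genes were filtered per comparison by filterByExpr (minimum count 10, minimum total 15) and tested with edgeR 4.0.16 (quasi-likelihood F-test, trimmed mean of M values) in R 4.3.3, with Benjamini-Hochberg adjustment over all genes of that comparison and a threshold of 0.05. A gene with few reads in a group passed the filter only through the other group, and could only be called higher in that other group. Counts of calls that hold such genes cannot be read against the background shares. The standard error of a log2 fold change is its size over the square root of F. There were 29 comparisons: 13 pairwise, 10 between stages and 6 differences of 2 effects. The fit was tested on simulated data. Levels are CPM over all 46 libraries, drawn with matplotlib 3.10.9, and shares of a copy were compared with exact permutation tests (scipy 1.17.1). Intervals and floors cover counting error only. No 2 libraries of a group were alike within sampling noise.

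All 6 genes are named, with the 3 genes nearest to each and, from each gene list, the called genes of smallest p in either direction. The genes and lists were chosen with earlier results of these data known. Rows of *chrd* carry names that the list did not hold, were added after the tables were seen and are in no list count. Libraries with the same letter deviated together in the 3-library groups (correlations of 0.145 to 0.899, over 0.1 in all 15 comparisons), so the letters were taken to pair them, and the blocked fit is given where it changes a call. The main tests and the background shares did not use the block, with which more genes were called in every comparison. Alternatives were RLE size factors, library totals, DESeq2 1.42.0, no filter, the block, both copies summed, all groups of an experiment in a single fit, and leaving out each library. Leaving out libraries for the *not.S* share, and library a of Wnt/Chrd with DMSO at stage 13 for *otx2* and the *nog.S* share, was added after the data were seen. With 1 library left in a group, its spread was taken from the other group.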

Additional observations from a re-analysis of the deposited data

Results flagged for a closer look

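The results here are differences between 2 inhibitor effects that passed the test of the difference itself (edgeR quasi-likelihood interaction, Benjamini-Hochberg adjusted over all genes). The effect of IBET minus that of TSA at stage 9 was -2.75 for *not.L* (SE 0.16, adjusted p = 0.00116) and -3.06 for *not.S* (SE 0.22, adjusted p = 0.00224). At stage 13 it was -1.09 for *not.L* (SE 0.35, adjusted p = 0.0419) and -4.18 for *not.S* (SE 0.46, adjusted p = 0.000218). The *not.L* call at stage 13 ended without 5 of the 8 libraries, each left out alone. Each inhibitor was set against its own vehicle, and the 2 vehicle groups differed in mesoderm transcripts at stage 13. At stage 9 they differed in *not* itself. *not.L* had 128 CPM in the IBET vehicle against 70.1 CPM in the TSA vehicle, and *not.S* 46.0 CPM against 19.1 CPM.

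The IBET effect in Wnt/Chrd explants minus that in uninjected explants at stage 13 was -4.56 for *nog.L* (SE 0.99, adjusted p = 0.0358) and -4.98 for *nog.S* (SE 0.83, adjusted p = 0.0124). The *nog.L* call ended without any of 9 of the 12 libraries. Between stages, as stage 13 minus stage 9, the IBET effects differed by 8.31 for *gsc.L* (SE 1.104, adjusted p = 0.00174), 2.17 for *not.L* (SE 0.30, adjusted p = 0.00148) and 5.46 for *nog.S* (SE 1.35, adjusted p = 0.0169). This *nog.S* call ended without 2 of the 8 libraries, each left out alone. The same difference for TSA was 4.99 for *gsc.L* (SE 1.58, adjusted p = 0.0328), 4.10 for *gsc.S* (SE 1.29, adjusted p = 0.0285), 4.15 for *nog.L* (SE 1.07, adjusted p = 0.0116) and 4.86 for *nog.S* (SE 0.89, adjusted p = 0.00216). In DESeq2 neither *gsc.L* (adjusted p = 0.133) nor *gsc.S* (adjusted p = 0.0722) passed there, and *gsc.L* was lost without any of 7 of the 8 libraries and *gsc.S* without any of 4. All of these but the *not* values rest on DMSO groups with 0 to 4 reads, and their size depends on the prior count of the fit. The *not.L* value rests on IBET vehicle libraries that carry mesoderm transcripts at stage 13.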

How the results depend on the processing

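Of 73 results in which a copy of *gsc*, *not* or *nog* passed, 73 passed with RLE size factors, with no filter and with the library letter as a replicate block, 71 with library totals, 68 with DESeq2, 72 with all groups in a single fit and 68 with copies summed. Leaving out 1 library ended the call in 60 of 407 refits, in 19 results. Refits in which the filter removed the gene are in neither number, as for *gsc.L* and *gsc.S* between stages in the TSA vehicle. Where a group holds only a few reads of *gsc* or *nog*, the size of a change against it is uncertain. Library totals moved the median of all genes by 0.597 with TSA at stage 13, by -0.063 (TSA) and by -0.485 to -0.852 (the other comparisons) between stages 13 and 9, by 0.137 to 0.239 in 4 further comparisons, and by 0.659, -0.466 and -0.174 in 3 differences of effects.

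The number of these genes that passed changed as follows. For Wnt/Chrd at stage 9 it was 1 with the block. For IBET in Wnt/Chrd explants it was 2 with DESeq2, the block or all groups and 1 with no filter at stage 13, and 2 with no filter or all groups at stage 17. For Wnt/Chrd with IBET at stage 17 it was 2 with library totals, DESeq2, no filter, the block or all groups. Between stages it was 4 with all groups (uninjected, stage 13 against 9), 2 with no filter or all groups (uninjected, stage 17 against 13), 1 with DESeq2 and 2 with all groups (Wnt/Chrd, stage 17 against 13) and 2 with DESeq2 (TSA). For IBET minus TSA at stage 9 it was 4 with the block, for the IBET effect in Wnt/Chrd minus uninjected explants at stage 17 it was 2 with library totals and 1 with DESeq2 or the block, and for TSA at stage 13 minus stage 9 it was 2 with DESeq2. In the groups of 2, the correlation of libraries with the same letter was positive in all 8 comparisons, at 0.143 to 0.764, so that letters may pair libraries there too. There the block gave an adjusted p of 0.00456 for *gsc.S* with IBET and 0.000599 for *nog.S* with TSA at stage 9. Calls that the block changed are given beside their results, and it ended none.

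Summing both copies turned the log2 fold change of the less abundant or opposed copy: 0.18 for *gsc.S* and -0.30 for *nog.L* with IBET at stage 9, -0.12 for *gsc.S* with TSA at stage 9, -0.0933 for *not.L* with IBET at stage 13, 0.31 for *nog.L* with Wnt/Chrd at stage 9, 0.57 and 0.20 for *nog.L* with IBET in Wnt/Chrd explants at stages 13 and 17, 0.17 for *nog.S* between stages with TSA, 0.32 for *gsc.S* and -1.22 for *nog.L* in IBET minus TSA at stage 9, -0.69 for *gsc.L* in the stage 17 difference between explants and 1.64 for *not.S* in the IBET effect at stage 13 minus 9. These follow from the sum, which takes the value of the other copy. The *not.L* difference between explants at stage 13 was -0.0336 with library totals and -0.0206 with no filter.

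Without 1 library each, the number passing ranged 1 to 2 and 0 to 1 for the IBET effect between explants at stages 13 and 17, 1 to 2 for IBET minus TSA at stage 13, 2 to 4 for IBET in uninjected explants at either stage, 1 to 2 for IBET in Wnt/Chrd explants at stage 17, 0 to 0 and 0 to 2 for Wnt/Chrd with IBET at stages 13 and 17, 2 to 4 for TSA at stage 13 minus 9, and between stages 3 to 6 (TSA vehicle), 2 to 4 (IBET from the 2-cell stage), 2 to 3 (TSA), 2 to 4 and 1 to 2 (uninjected, to stages 13 and 17) and 0 to 1 (Wnt/Chrd, to stage 17). Log2 fold changes that turned, none of which passed, ranged -0.60 to 0.0182 for *gsc.L*, -0.25 to 0.33 for *gsc.S* and -0.30 to 0.33 for *nog.L* with TSA at stage 9, -1.76 to 0.0299 for *nog.S* with IBET at stage 9, -0.0881 to 0.55 for *not.L* with IBET at stage 13, -0.51 to 0.35 for *nog.L*, -0.57 to 1.08 for *nog.S* and -0.003 to 0.18 for *not.L* with Wnt/Chrd at stage 9, -0.35 to 1.14 for *not.S* with IBET in uninjected explants at stage 13, -0.62 to 0.0438 for *nog.L* with IBET in Wnt/Chrd explants at stage 13, and -0.37 to 0.56 and -0.0553 to 0.74 for *gsc.L* with Wnt/Chrd under IBET at stages 13 and 17. They ranged -1.89 to 0.0655 for *gsc.S* between stages with TSA, -4.84 to 0.0162 for *nog.L* and -3.91 to 0.90 for *nog.S* in IBET minus TSA at stage 13, -0.74 to 0.54 for *not.L* and -0.37 to 1.21 for *not.S* between explants at stage 13, and -0.0928 to 0.71 for *not.S* in TSA at stage 13 minus 9. The difference in the *not.S* share ranged -12.2 to 2.13 points with IBET in uninjected and -6.66 to 1.68 in Wnt/Chrd explants at stage 17, -0.435 to 13.5 with TSA at stage 13 and -13.5 to 0.783 with Wnt/Chrd and DMSO at stage 17.

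Over all genes, the number called was 498 for IBET at stage 9 and 2526 with the block, 446 and 2981 for TSA at stage 9, 5 and 465 for Wnt/Chrd at stage 9, 2479 and 5212 for Wnt/Chrd with DMSO at stage 13, 13 and 154 for Wnt/Chrd with IBET at stage 13, 2850 and 6239 for Wnt/Chrd between stages 17 and 13, and 218 and 1343 for IBET minus TSA at stage 9. It was 3163 for IBET in Wnt/Chrd explants at stage 13 and 9928 with all groups in a single fit, and 47 for Wnt/Chrd with IBET at stage 17 and 546 with DESeq2.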
